A study of Mus musculus with 4 samples.

Results

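Among the droplet barcodes of 4 single-cell RNA libraries of mouse aorta, a small set carried the transcripts of complement C1q but held few RNA molecules in all. These low-UMI macrophage barcodes were the barcodes with 500 to under 1000 unique molecular identifiers (UMIs, each standing for 1 captured RNA molecule), at most 10% of them from mitochondrial genes. They also held at least 3 UMIs over C1qa, C1qb and C1qc, and no UMI of Cd79a, Ms4a1 or Cd3e, which mark B and T cells. The members were thus selected on their C1q UMIs, total UMIs, mitochondrial share and lymphocyte UMIs. The rule found 821 of 70795 barcodes. Of these, 94.6% came from 1 library.

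There was 1 library for each of 4 groups. Aortas of WT and of LysM-DKO mice came from a normal diet, and those of WT/ApoE-/- and of LysM-DKO/ApoE-/- mice from a western diet, and values follow this order where no group is named. The series' title concerns epsins, and LysM names the Lyz2 promoter, which drives Cre in myeloid cells, but the labels do not spell out the deleted alleles, the number of animals, their age or their sex. Aortas were digested with collagenases and liberase and loaded on a 10x Genomics 3' v3.1 kit. Diet, ApoE genotype and the software version of the authors changed together, so these cannot be told apart, and with 1 library a group no difference between groups was tested.

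C1q is the recognition part of the classical complement pathway, and tissue macrophages, including those of the artery wall and its plaques, are a main source of it. A macrophage that is intact when it is captured also yields Fc receptor adaptors, lysosomal enzymes and, when it is activated, chemokine transcripts. A barcode tags all RNA in a droplet, so its UMIs may come from a cell, from part of one, or from RNA free in the suspension. Smooth muscle cells, which make up most of the aortic wall, do not make C1q, and macrophages do not make the contractile proteins specific to smooth muscle.

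The members numbered 15, 21, 777 and 8, which is 0.108, 0.133, 2.61 and 0.0701% of the barcodes of each library (exact binomial 95% intervals 0.0607 to 0.179, 0.0822 to 0.203, 2.44 to 2.80 and 0.0303 to 0.138%). Among barcodes of 500 to under 1000 UMIs with at most 10% mitochondrial UMIs, they made up 1.17, 1.49, 6.26 and 0.887% of 1281, 1406, 12412 and 902. The WT/ApoE-/- western diet library was itself low in UMIs per barcode, since 47.7% of its barcodes had under 1000 UMIs against 12.9 to 14.4% in the others. In all it held the most UMIs, 67450979, and the most barcodes, 29724. Its median barcode held 1047 UMIs, against 2057 to 5581. The files held no barcode under 500 UMIs. In all, 13 members shared their barcode sequence with a barcode of another library, and 0 were a member in both.

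Together the members held 10920, 18348, 569807 and 6051 UMIs, with a median of 674, 885, 729 and 776 per barcode. A count of 0 in these sums allows a level of up to 275, 164, 5.26 and 496 CPM (UMIs of a gene per 1000000 UMIs of the set), taking 3 UMIs as the limit. All intervals here cover counting error only.

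The C1q counts that chose the members are given as a description. The median was 4, 5, 4 and 8 C1q UMIs, and 6, 8, 289 and 1 members had exactly 3. Just outside the rule stood 3, 8, 435 and 2 barcodes with 2 C1q UMIs, and 2, 6, 55 and 4 that passed but for their mitochondrial share. A further 14, all in the WT/ApoE-/- western diet library, failed only through a lymphocyte UMI. In that library the members of 950 UMIs or more, just inside the upper limit, and the C1q barcodes just above 1000 UMIs gave other macrophage genes 0.814 and 0.817% of their UMIs and smooth muscle genes 2.91 and 3.17%.

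2 other sets serve as references. Deep C1q barcodes had at least 2000 UMIs, passed the same mitochondrial and lymphocyte limits, and had a C1q share within 0.322 to 1.67% of UMIs, the central 95% of the members. They numbered 50, 137, 329 and 91, with a median of 4816.5, 4822, 4640 and 4111 UMIs. The range bounded the C1q share but did not equalize it. The median C1q share was 0.666, 0.668, 0.563 and 0.945% in the members and 0.669, 0.684, 0.995 and 0.972% in deep C1q barcodes. The low C1q-free barcodes had 500 to under 1000 UMIs and no C1q UMI, and numbered 1206, 1251, 9530 and 875.

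The label could be checked on 20 other macrophage genes that the rule did not use, among them Tyrobp, Fcer1g, Csf1r, Cd68 and Lyz2. They took 0.797, 0.540, 0.823 and 1.37% of the members' UMIs (exact binomial 95% intervals 0.639 to 0.982, 0.439 to 0.657, 0.799 to 0.846 and 1.09 to 1.70%). Deep C1q barcodes gave 1.32, 1.15, 1.94 and 1.43%, and low C1q-free barcodes 0.0285, 0.0244, 0.0609 and 0.0156%. The members thus lay far above barcodes of their own depth in all 4 libraries. They lay below the deep barcodes in 3, and within counting error of them in the LysM-DKO/ApoE-/- western diet library. C1q genes, used by the rule, took 1.44% of UMIs in the members of that library and 0.998% in its deep C1q barcodes.

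When each barcode was thinned to 500 UMIs, 100, 90.5, 92.8 and 100% of members still had a UMI of at least 1 of these genes, against 10.2, 10.6, 19.1 and 5.94% of low C1q-free barcodes. Unthinned, 100, 95.2, 96.1 and 100% of members had one, with a median of 5, 5, 5 and 10 UMIs. Single genes were patchier in the thinned members. The Fc receptor adaptor Fcer1g was seen in 33.3, 47.6, 35.8 and 75%, and the lysozyme gene Lyz2 in 60, 23.8, 48.0 and 37.5%. The LysM label names the promoter of Lyz2, so this gene may differ with genotype, which was not tested. In low C1q-free barcodes Fcer1g reached at most 2.31% and Lyz2 at most 4.83%.

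C1q UMIs were also present in barcodes that should lack them. Of barcodes of 500 to under 1000 UMIs with at least 5% smooth muscle UMIs, 3.01, 8.33, 13.5 and 0% held a C1q UMI, at median depths of 631, 818, 705 and 686 UMIs. Of the other barcodes of that depth, 4.27, 7.79, 22.0 and 2.92% held one, at medians of 748, 850, 686 and 630. In the WT/ApoE-/- western diet library 52 of the 2370 smooth muscle-rich barcodes held 3 or more, or 2.19% (1.64 to 2.87%), against 7.55% (7.03 to 8.10%) of the rest, so 52 of the 777 members were themselves smooth muscle-rich. No smooth muscle-rich barcode of the other 3 libraries reached 3 C1q UMIs, among 133, 48 and 43. Deep smooth muscle-rich barcodes thinned to 500 UMIs held a C1q UMI in 0, 0.547, 1.70 and 0.0896%.

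In 3 of the 4 libraries the smooth muscle list took a larger share of the members' UMIs than the list of other macrophage genes did. The latter leaves out C1q, MHC class II, lipid-associated and resident macrophage genes. The shares therefore do not compare the amounts of smooth muscle and macrophage RNA. The 16 smooth muscle genes, which encode contractile proteins such as alpha-actin (Acta2), transgelin (Tagln) and smooth muscle myosin (Myh11), took 3.29, 3.09, 2.63 and 1.17% of the members' UMIs (2.96 to 3.64, 2.84 to 3.35, 2.58 to 2.67 and 0.918 to 1.48%). Deep C1q barcodes gave 0.670, 0.676, 0.70 and 0.875%, and low C1q-free barcodes 3.32, 3.28, 3.66 and 2.62%. The list also holds less specific genes such as Myl6, with a mean of 1766 CPM in deep C1q barcodes, so part of each share may be the macrophages' own. In both normal diet libraries the members' share was within counting error of the low C1q-free barcodes. On western diet it lay between the 2 references.

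Fibroblast and modulated wall genes, which code for matrix proteins such as matrix Gla protein (Mgp), biglycan (Bgn) and decorin (Dcn), followed the same order. Their share was 1.21, 1.20, 1.99 and 0.430% in members, 0.314, 0.375, 0.541 and 0.242% in deep C1q barcodes, and 1.54, 1.85, 3.27 and 1.84% in low C1q-free barcodes. In the WT/ApoE-/- western diet library 776 of the 777 members had a smooth muscle UMI, and the median member had 17. Whether this RNA was in the captured cells or free in the droplets was not tested.

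**Figure D1:**
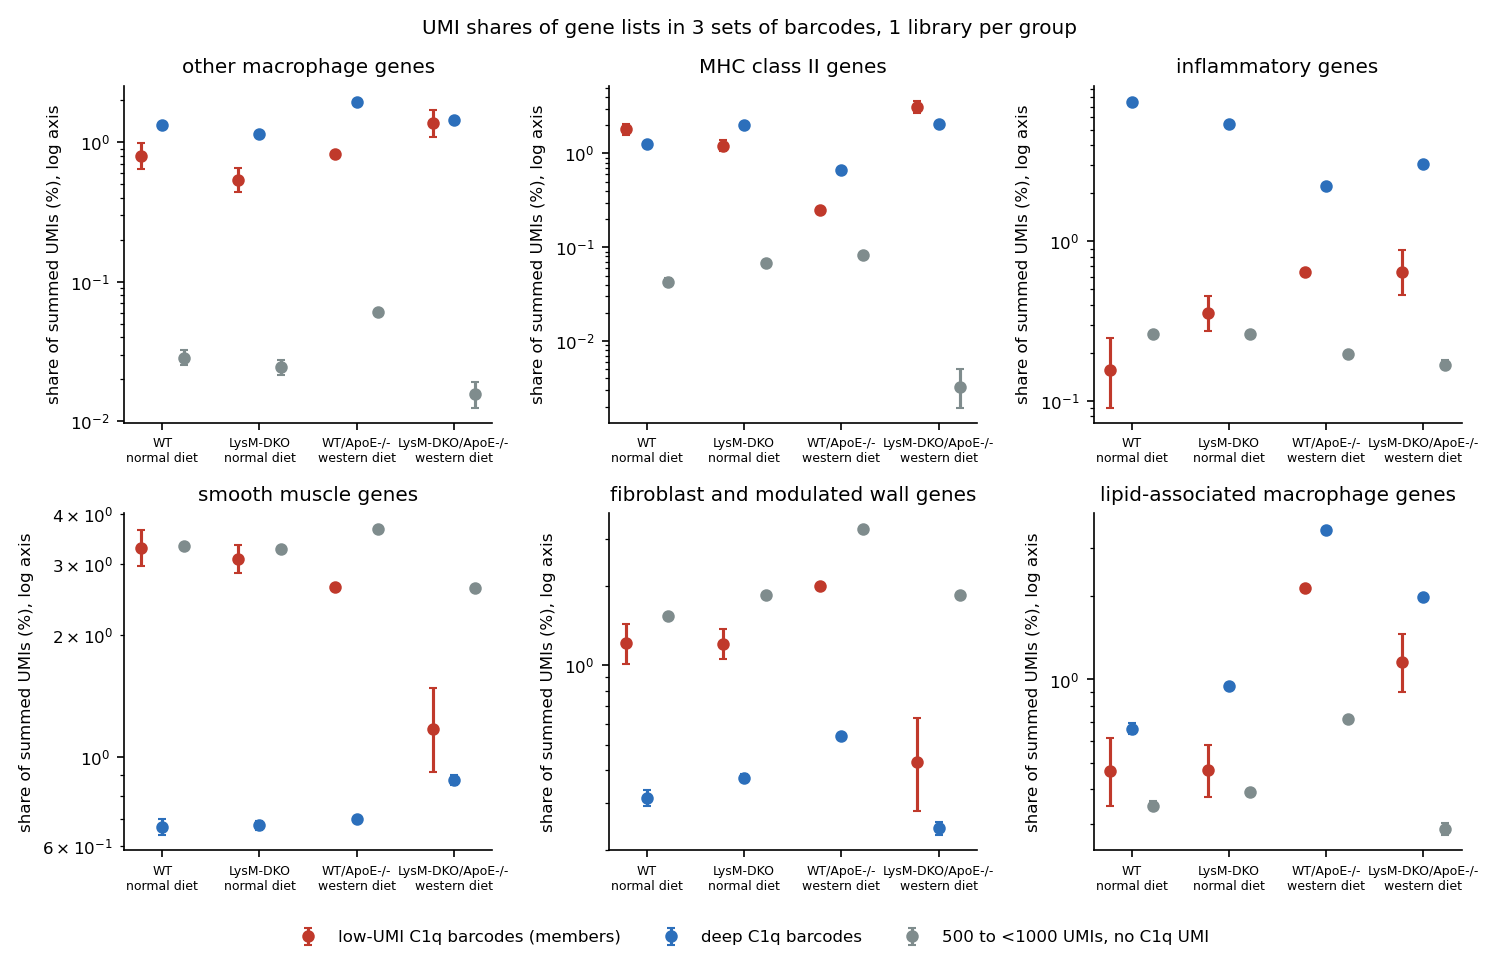
Share of summed UMIs (vertical log axes, in %) of 6 gene lists in the members, the deep C1q barcodes and the low C1q-free barcodes of the 4 libraries, with exact binomial 95% intervals. The members sit far above the C1q-free barcodes for other macrophage genes. For MHC class II genes they also sit above them, least so in WT/ApoE-/- western diet (0.252 against 0.0838%). The members are close to the C1q-free barcodes for smooth muscle genes in both normal diet libraries, and well below the deep barcodes for inflammatory genes in all 4.

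Red cell transcripts took a smaller share in the members than in the low C1q-free barcodes. The latter were not filtered for erythroid cells, so their sums may include such barcodes. Hemoglobin and other erythroid genes took 0.101, 0.191, 0.0976 and 0% of the members' UMIs, against 3.24, 1.64, 0.297 and 2.08% in low C1q-free barcodes and 0.0176, 0.246, 0.00515 and 0% in deep C1q barcodes. In WT normal diet and WT/ApoE-/- western diet the members thus lay between the 2 references, as they did for wall genes. Endothelial genes took at most 0.104% of the members' UMIs. Schwann cell genes had no UMI in 3 of the 4 libraries.

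Within the WT/ApoE-/- western diet library, the 2 kinds of RNA changed in opposite directions with the number of C1q UMIs. From 0, 1 and 2 C1q UMIs to the members with 3, 4, 5 to 9 and 10 or more, the share of other macrophage genes was 0.0609, 0.248, 0.457, 0.604, 0.722, 0.982 and 1.60%. That of smooth muscle genes was 3.66, 3.59, 3.18, 2.93, 2.97, 2.24 and 1.63%. There was no step at the limit of 3 UMIs. Lipid-associated macrophage genes had 0.722, 0.989, 1.37, 1.45, 2.0, 2.53 and 4.52%.

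**Figure D2:**
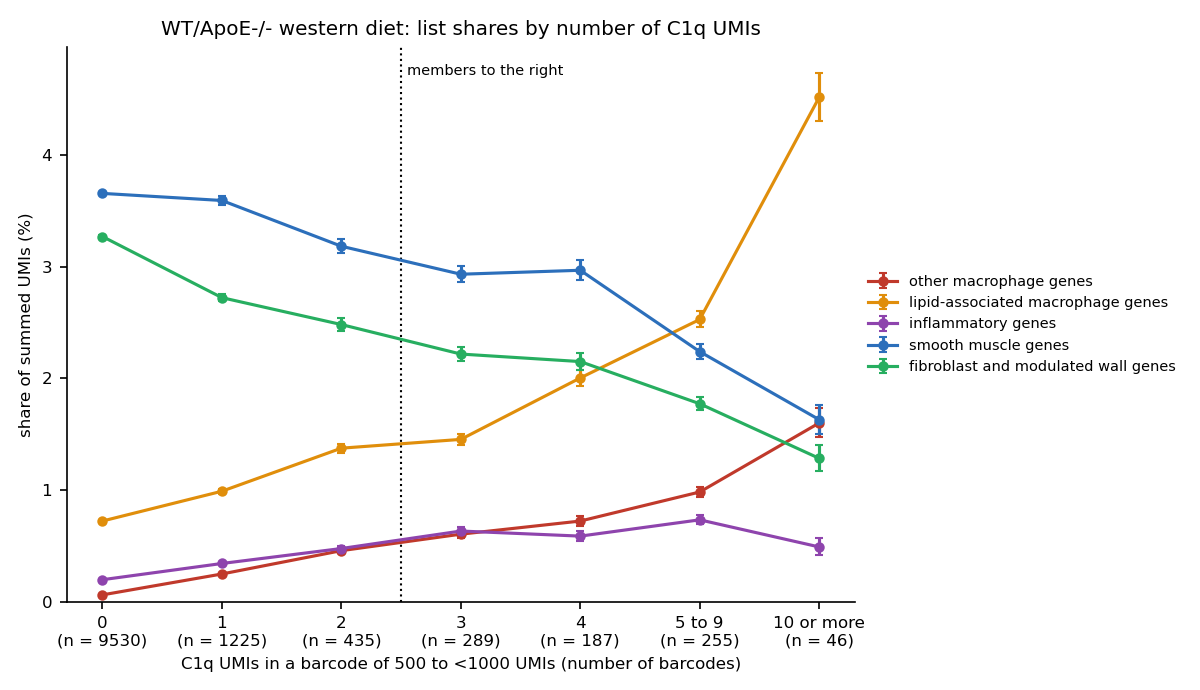
Share of summed UMIs of 5 gene lists (vertical axis, in %) in barcodes of 500 to under 1000 UMIs of the WT/ApoE-/- western diet library, by their number of C1q UMIs (horizontal axis, with the number of barcodes), with exact binomial 95% intervals. Macrophage and lipid-associated genes are highest, and smooth muscle and wall genes lowest, in the 46 barcodes with 10 or more C1q UMIs.

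Across the 777 members of that library, the share of other macrophage genes and that of smooth muscle genes were inversely related (Spearman's rho -0.32, Pearson's r -0.30). The C1q share went up with other macrophage genes (rho 0.41, r 0.50) and down with smooth muscle genes (rho -0.23, r -0.23). These are descriptions across barcodes of 1 library, whose shares have the same denominator.

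Depth could be followed in the same library among barcodes whose C1q share lay within 0.322 to 1.67%. In bands that start at 500, 750, 1000, 1500, 2000, 3000, 5000 and 10000 UMIs, each ending where the next begins, smooth muscle genes took 2.67, 2.60, 2.31, 2.10, 1.43, 0.514, 0.711 and 0.599%. Other macrophage genes took 0.768, 0.793, 1.02, 1.17, 1.55, 1.67, 1.97 and 2.30%. The first share went down and the second up from band to band, but for the rise of smooth muscle genes from 0.514 to 0.711%. Inflammatory genes had 0.680, 0.629, 0.839, 0.674, 1.54, 3.87, 2.34 and 0.713%, so they were lowest under 2000 UMIs and again low in the deepest band, which held 34 barcodes. Lipid-associated genes reached 6.55% in that deepest band.

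**Figure D3:**
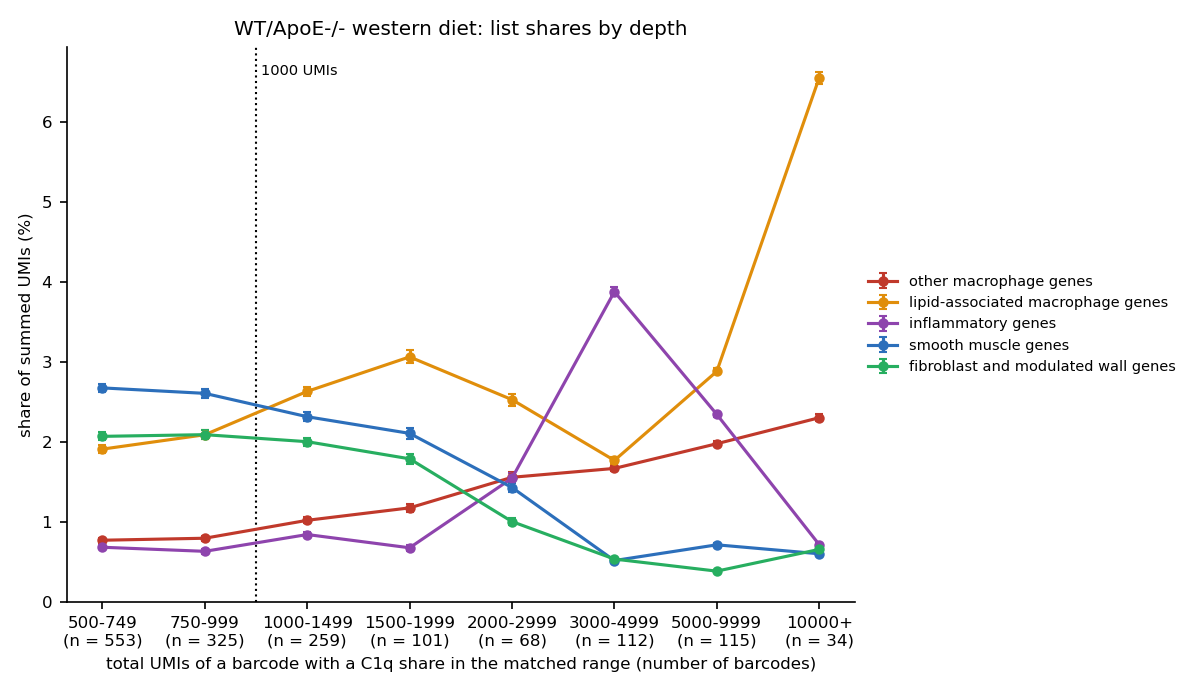
Share of summed UMIs of 5 gene lists (vertical axis, in %) in C1q barcodes of the WT/ApoE-/- western diet library by total UMIs (horizontal axis, with the number of barcodes), with exact binomial 95% intervals. The smooth muscle share falls from 2.67% to 0.514% between the first and the sixth band, and the inflammatory share peaks at 3.87% in the band from 3000 to under 5000 UMIs.

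To compare gene by gene, UMIs were summed over the members and over the deep C1q barcodes of each library, and the 4 pairs were tested with edgeR's quasi-likelihood test with the library as a block. Of 4525 genes tested, 6.45% were called at a Benjamini-Hochberg adjusted p under 0.05, with 2.81% (127 genes) higher and 3.65% (165 genes) lower in the members. The median log2 ratio of all genes tested was -0.29, and -0.12 without scaling beyond the total UMIs, a shift of 0.17. Several lists moved further without that scaling, with the median of inflammatory genes at -2.42 instead of -2.90, of dissociation stress genes at -0.12 instead of -0.74, of MHC class II genes at -0.29 instead of -0.83, and of smooth muscle genes at 2.01 instead of 1.46. In that fit 55.5% of the called genes were higher, against 43.5%. The 4 pairs are unequal, since 3 of the 4 member sums held at most 18348 UMIs.

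Without the LysM-DKO normal diet library, 80 genes were called instead of 292, and without the WT/ApoE-/- western diet library 168. Barcodes of 1000 to under 2000 UMIs in place of the members gave 135. Of the 292 called genes, 66 kept their call without the LysM-DKO normal diet library, 199 without WT normal diet, 148 without WT/ApoE-/- western diet and 281 without LysM-DKO/ApoE-/- western diet. In the same order 12, 4, 90 and 0 of them no longer passed the filter on low counts, and none of those still tested changed sign when a library was left out.

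Inflammatory genes were the list with the largest drop. Of 16 genes tested, 14 fell in the members and 0 rose, with a median log2 ratio of -2.90 against -0.29 over all genes. Leaving out the LysM-DKO normal diet library left 8 of 16 called, with a median of -2.71. With the mitochondrial limit at 5%, 6 of 16 were called, with a median of -3.03. The 2 that were not called were Cd83 and Il1a, at -1.88 and -1.62.

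Chemokines led this group. Ccl4, a CC chemokine gene (GRCm38 chr11:83662584-83664683), had 0, 2, 453 and 11 UMIs in the members, or 0, 109, 795 and 1818 CPM. Deep C1q barcodes held 21525, 14774, 4155 and 5579 CPM, which is above the members in every library. The log2 ratio was -4.50 (SE 0.41, edgeR adjusted p = 2.03e-24, 4 pairs). By library the log2 ratios were -8.88, -6.76, -2.38 and -1.55, the first resting on 0 UMIs in the members. The SE of the fit does not show this spread.

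Cxcl2, which draws neutrophils through Cxcr2 (chr5:90903871-90905938), had 0, 1526, 2269 and 2479 CPM in the members and 32783, 25407, 8711 and 13407 CPM in deep C1q barcodes. Members were again lower in all 4 libraries, and the log2 ratio was -4.12 (SE 0.36, edgeR adjusted p = 4.99e-26). By library the log2 ratios were -9.48, -4.03, -1.94 and -2.39, again a wider spread than the SE shows. Low C1q-free barcodes held 162, 238, 244 and 56.6 CPM, so in 3 libraries the members stood between the 2 sets. In the WT normal diet library the members had no Cxcl2 UMI, which allows up to 275 CPM.

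The cytokine gene Tnf (chr17:35199381-35202007) had 0, 1, 128 and 2 UMIs in the members, or 0, 54.5, 225 and 331 CPM, against 2791, 1596, 1149 and 832 CPM in deep C1q barcodes (log2 ratio -3.50, SE 0.52, edgeR adjusted p = 1.84e-08). Ccl3, Cxcl10, Ccl7 and Cxcl1, further chemokines, had log2 ratios of -3.86, -3.80, -3.62 and -3.60. Nfkbia, which encodes the inhibitor of NF-kappa-B and is induced by it, fell less. It had 824, 927, 951 and 661 CPM in the members against 2420, 1554, 2034 and 2223 CPM, a log2 ratio of -1.68 (SE 0.41, edgeR adjusted p = 0.00301), and its call was lost without the LysM-DKO normal diet library (adjusted p = 0.065).

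**Figure D4:**
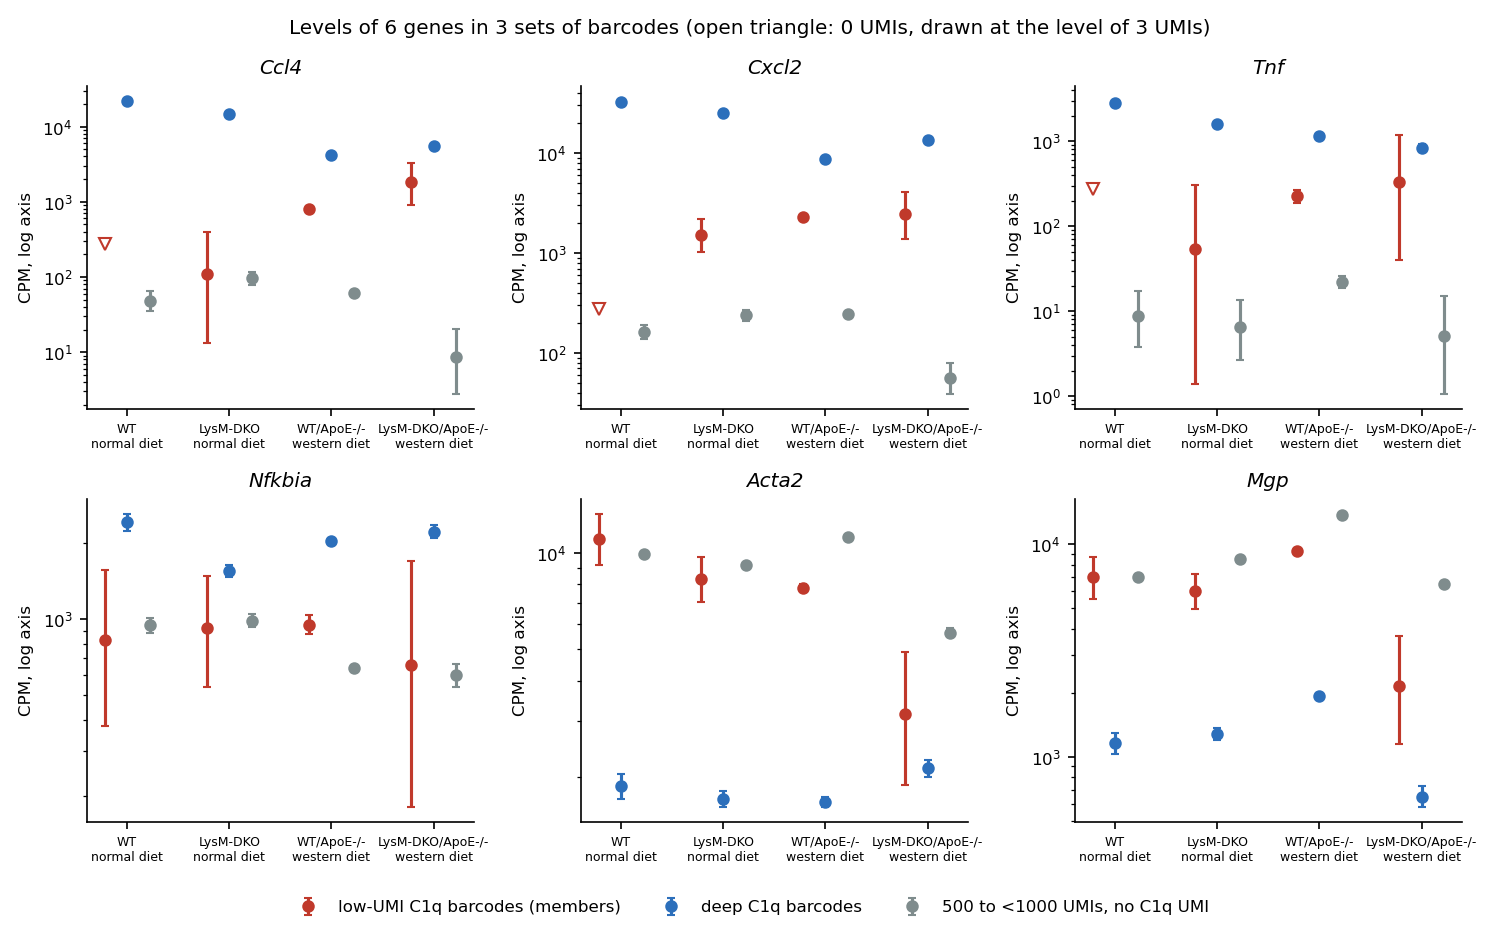
Levels (vertical log axes, in CPM) of 4 inflammatory genes, of Acta2 and of Mgp in the members, the deep C1q barcodes and the low C1q-free barcodes of the 4 libraries, with exact Poisson 95% intervals. Members lie below the deep barcodes for the first 4 genes and above them for the last 2 in all 4 libraries, and an open triangle marks a level of 0 UMIs at its limit of 3 UMIs.

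The other genes named by the rule on size were Retnla, Oasl1, Rsad2, Areg and Clec10a. Retnla and Clec10a, which mark alternatively activated macrophages, had 0, 2, 0 and 0 and 0, 1, 1 and 0 UMIs in the members (log2 ratios -4.67 and -3.28). Oasl1 and Rsad2 are interferon-induced, and had 0, 0, 4 and 0 and 0, 2, 3 and 0 UMIs (both -4.26). Areg, a growth factor gene, had 0, 0, 10 and 0 (-3.61). Fitted ratios of genes at or near 0 UMIs depend on the prior count and are no bound. In LysM-DKO/ApoE-/- western diet all 5 had no UMI in the members, which allows 496 CPM, above their deep levels of 39.8 to 189 CPM, so a lower level was not detectable there. The same held for Clec10a in WT normal diet, where the limit for 0 UMIs lay above its deep level.

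Dissociation stress genes, induced when tissue is digested, moved less than the chemokines. Of 17 tested 4 fell and 0 rose, with a median of -0.74. The 4 were Klf6, Junb, Atf3 and Hsp90aa1, at -1.78, -1.65, -1.62 and -1.46, of which all but Hsp90aa1 were chosen after their values were seen. The immediate early genes Fos and Egr1 were not called, at 0.24 and 0.04, both with adjusted p above 0.8 in edgeR (0.829 and 0.972). EdgeR called 0 of the 17 without the LysM-DKO normal diet library (4 lower at an unadjusted p under 0.05), and 1 without WT normal diet.

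The other macrophage genes also lay below the deep barcodes in the fit, whose ratios include scaling beyond the total UMIs. By share of UMIs, without that scaling, the list stood at 60.3, 46.8, 42.4 and 95.7% of its level in deep C1q barcodes. Of 20 genes tested, 7 fell and 0 rose, with a median of -1.45, and all 20 fitted ratios were below 0. Among them were Cd14, Cybb, Csf1r, Adgre1, Ms4a7 and Laptm5, at log2 ratios of -2.59, -2.38, -2.35, -2.03, -1.98 and -1.62. These were chosen after their values were seen, and none of the 20 was called by edgeR without the LysM-DKO normal diet library (8 lower at an unadjusted p under 0.05, median -1.42). The 4 most abundant genes of the list did not pass the test. Lyz2 had 3297, 927, 1997 and 2148 CPM in the members and 4054, 1120, 4814 and 786 CPM in deep C1q barcodes (log2 ratio -0.68, edgeR adjusted p = 0.311). Its deep level was lower in both LysM-DKO libraries, whose label names the Lyz2 promoter, than in both WT libraries. The members did not split by genotype in this way, and whether the genotype bears on Lyz2 was not tested. Fcer1g, Ctss and Tyrobp had log2 ratios of -0.80, -1.05 and -0.94 (adjusted p = 0.219, 0.113 and 0.221).

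MHC class II genes, which present antigen to CD4 T cells, gave 0 calls among 6 tested by edgeR, with a median of -0.83 and 4 of the 6 lower at an unadjusted p under 0.05. DESeq2 also called 0 (3 lower at an unadjusted p under 0.05), and edgeR called 1 with the deep barcodes limited to under 10000 UMIs. Without the LysM-DKO/ApoE-/- western diet library 4 were called lower. The list took 1.80, 1.21, 0.252 and 3.12% of the members' UMIs and 1.26, 2.02, 0.662 and 2.05% in deep C1q barcodes. Members were thus higher in the WT normal diet and LysM-DKO/ApoE-/- western diet libraries and lower in the other 2. Cd74, the invariant chain, was the highest of them, with 6960, 5069, 895 and 11568 CPM in the members and 5559, 8314, 2658 and 8278 CPM in deep C1q barcodes.

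Resident macrophage genes fell in 5 of 15 tested, with none higher and a median of -1.24. These were Cd163, Lyve1, Mrc1, Stab1 and Selenop, at -3.13, -2.88, -2.59, -2.29 and -1.34, the first 2 and Stab1 chosen after their values were seen. Mrc1, the mannose receptor, had 183, 164, 68.4 and 661 CPM in the members and 1274, 1287, 401 and 781 CPM in deep C1q barcodes (SE 0.52, edgeR adjusted p = 1.42e-04). By share of UMIs the libraries did not move alike. The list took 0.513, 0.703, 0.118 and 0.876% of the members' UMIs and 0.912, 0.878, 0.233 and 0.413% in deep C1q barcodes, so the members were lower in 3 libraries and higher in LysM-DKO/ApoE-/- western diet. Barcodes of 1000 to under 2000 UMIs gave a list median of 0.15 and no call (Cd163 at 0.12). EdgeR called 1 of 14 without the LysM-DKO normal diet library.

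Lipid-associated genes, which mark the foamy macrophages of plaques, fell in 6 of 19 and rose in none, with a median of -1.06. The 6 were Cd36, Spp1, Plin2, Ctsb, Lgals3 and Ctsl. Ctsb, a lysosomal protease, had 1099, 981, 2738 and 3305 CPM in the members and 2456, 3064, 5918 and 4167 CPM in deep C1q barcodes (log2 ratio -1.55, SE 0.37, edgeR adjusted p = 0.00169). Without the LysM-DKO normal diet library edgeR called none of 20 (8 lower at an unadjusted p under 0.05, median -1.12).

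Spp1, which encodes osteopontin, had 4210 UMIs in the WT/ApoE-/- western diet members and 0 in the other 3 libraries. With 0.5 UMI added to each count, the log2 ratio to deep C1q barcodes in those libraries was 0.25, -1.30 and -4.59. In both normal diet libraries the deep level lay below the limit for 0 UMIs, so a lower level was not detectable. In WT/ApoE-/- western diet its level was 7388 CPM in the members, 9412 CPM in deep C1q barcodes and 3208 CPM in low C1q-free barcodes. Its call (log2 ratio -1.75, SE 0.55, edgeR adjusted p = 0.0289) did not hold by DESeq2 (adjusted p = 0.343). Trem2, the lipid receptor, had 91.6, 164, 469 and 165 CPM in the members against 103, 99.0, 914 and 494 CPM and was not called (log2 ratio -0.87, edgeR adjusted p = 0.484).

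Per barcode, a UMI of Trem2 or Gpnmb was present in 2, 3, 289 and 1 members, which is 37.2% of the WT/ApoE-/- western diet members. A UMI of Lyve1 or Folr2 was present in 1, 5, 25 and 1, and 12, 14, 479 and 6 members had neither. At this depth the absence of a UMI does not show that a gene was off.

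Genes for the lysosomal proton pump and membrane fell in 3 of 16 (Lipa, Npc2 and Psap, at -2.10, -1.42 and -1.28, Lipa chosen after its values were seen), with a median of -1.22. Without the LysM-DKO normal diet library edgeR called none of the 16 (4 lower at an unadjusted p under 0.05). The ferritin genes Fth1 and Ftl1, which store iron, were the only called genes among 14 for translation factors and housekeeping. Ftl1 had 2747, 4469, 6525 and 8924 CPM in the members against 9345, 11236, 13291 and 9309 CPM (log2 ratio -1.54, SE 0.32, edgeR adjusted p = 1.87e-04, and 0.125 without the LysM-DKO normal diet library). Ribosomal protein genes gave 0 calls among 81 in edgeR (1 lower at an unadjusted p under 0.05), with a median of -0.25 that became 0.25 without scaling. Their share of UMIs was 14.7, 12.6, 8.12 and 12.4% in members and 9.23, 9.63, 9.37 and 11.6% in deep C1q barcodes.

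Nuclear-retained RNA gave a mixed picture against the deep barcodes. The list took 0.842, 1.53, 2.38 and 1.83% of the members' UMIs and 3.13, 2.78, 2.08 and 1.82% in deep C1q barcodes. Low C1q-free barcodes gave 3.74, 3.26, 2.96 and 5.55%, which is above the members in every library. Malat1 had 8150, 14497, 22687 and 17187 CPM in the members and 28615, 25636, 19301 and 16694 CPM in deep C1q barcodes, so members were lower in both normal diet libraries and higher in both western diet libraries. Its call (log2 ratio -1.10, edgeR adjusted p = 0.00716) was lost by DESeq2 (adjusted p = 0.124). Neat1, the scaffold of paraspeckles, had 0, 6, 414 and 4 UMIs in the members, or 0, 327, 727 and 661 CPM, against 1998, 1514, 1143 and 1058 CPM (log2 ratio -2.12, edgeR adjusted p = 9.44e-04, and 0.134 by DESeq2).

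Smooth muscle genes rose in 6 of 13 tested and fell in none, with a median of 1.46. Acta2 (chr19:34241090-34255590) had 11081, 8284, 7790 and 3140 CPM in the members and 1873, 1709.5, 1669 and 2131 CPM in deep C1q barcodes. Members were higher in every library, least so in LysM-DKO/ApoE-/- western diet, where 19 UMIs were counted. The log2 ratio was 1.47 (SE 0.35, edgeR adjusted p = 0.00223). Tagln, Myh11, Mylk, Myl9 and Tpm2 gave 1.46, 1.36, 1.57, 1.68 and 1.69. Without the LysM-DKO normal diet library edgeR called none of the 13 (5 higher at an unadjusted p under 0.05, median 1.32), and without WT normal diet 1 of 14. Acta2 then had edgeR adjusted p = 0.280 and 0.122. By DESeq2 12 of 13 were called higher.

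Among fibroblast and modulated wall genes 4 of 12 rose and none fell, with a median of 1.04. These were Dcn, Mgp, Serpinf1 and Bgn, at 1.81, 1.73, 1.65 and 1.46, Dcn and Serpinf1 chosen after their values were seen. Mgp (chr6:136872435-136875823), an inhibitor of calcification, had 6960, 5995, 9296 and 2148 CPM in the members against 1157, 1274, 1927 and 649 CPM in deep C1q barcodes (SE 0.36, edgeR adjusted p = 2.01e-04, and 0.069 without the LysM-DKO normal diet library, where 1 of 12 was called). Low C1q-free barcodes held 7029, 8538, 13760 and 6516 CPM. Of 3 erythroid genes tested 1 rose, the hemoglobin gene Hba-a1, with 4, 10, 90 and 0 UMIs in the members (log2 ratio 2.27, edgeR adjusted p = 0.0359), a call lost without WT normal diet and without WT/ApoE-/- western diet. It shares reads with the near-identical Hba-a2, so its value is uncertain.

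The highest ratios by the rule on size belonged to further genes of the vessel wall with low counts. Efhd1 (chr1:87264363-87310839), a mitochondrial calcium sensor, had 5, 3, 58 and 2 UMIs in the members and a log2 ratio of 2.67 (SE 0.56, edgeR adjusted p = 2.83e-04). Lama4, a laminin of basement membranes, had 2, 1, 24 and 1 UMIs (2.62). Others were Cped1, Gucy1b1, Col5a1, Mcam, Pgm5, Itgbl1, Rbms3, Sh3bgr and Mfap5, at 2.34 to 2.06. Outside that rule, Igfbp5, chosen after its values were seen, had 5, 3, 220 and 0 UMIs in the members, and in WT/ApoE-/- western diet 386 CPM against 15.9 CPM in deep C1q barcodes.

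Another gene among those that rose, also chosen after its values were seen, was AY036118 (chr17:39847113-39848035), annotated as a lincRNA. It lies in a copy of the ribosomal DNA unit, so its reads may be ribosomal RNA and its value is uncertain. It held 18040, 14879, 17487 and 15204 CPM in the members, 2534, 2509, 3712 and 2491 CPM in deep C1q barcodes and 15475, 15087, 18506 and 17229 CPM in low C1q-free barcodes. The members stood at 117, 98.6, 94.5 and 88.2% of the C1q-free level. The log2 ratio to the deep barcodes was 2.04 (SE 0.31, edgeR adjusted p = 4.01e-08).

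The genotype labels were looked at in the members where counts allowed. Apoe had 81, 57, 3 and 0 UMIs in the members, or 7418, 3107, 5.26 and 0 CPM, against 7571, 6648, 10.4 and 12.6 CPM in deep C1q barcodes. The epsin gene Epn1 had 0, 0, 21 and 1 UMIs and Epn2 had 1, 2, 40 and 0. The members' Apoe level thus differed between normal and western diet libraries the way the ApoE labels do. The counts of Epn1 and Epn2 are too low to check the LysM-DKO labels, and a 3' tag outside a deleted exon would not show the deletion. Epn2 was called higher in the members (log2 ratio 2.01, SE 0.47, edgeR adjusted p = 0.00136), with 70.2 CPM in WT/ApoE-/- western diet against 14.8 CPM in deep and 91.4 CPM in low C1q-free barcodes.

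A wider set of genes was then chosen in 1 library and read in another. In the deep barcodes of LysM-DKO/ApoE-/- western diet, genes at 200 CPM or more and at least 4-fold above deep barcodes without C1q were taken as macrophage-enriched, and those with the opposite ratio as wall-enriched. This gave 199 of each. In the WT/ApoE-/- western diet library the macrophage-enriched genes stood in the members at a median of 43.0% of their level in deep C1q barcodes (interquartile range 34.5 to 50.7%), and 199 of 199 were below it. The lowest, each under 20% of the deep level, were Cd163, Lyve1, Pf4, Mrc1, F13a1, Ccl4, Tnf, Ccl3 and Stab1. The 12 genes that are also in the inflammatory list stood at 26.2% (23.6 to 37.6%). The C1q genes themselves, used by the rule, stood there at 64.4% of their deep level, so the sets compared were not equal in C1q.

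Emp1, S100a10 and Spp1 were kept best, at 84.7, 82.9 and 78.5%. Barcodes of 1000 to under 2000 UMIs stood between, with a median of 50.1%. The wall-enriched genes had a median of 67.6% of their level in low C1q-free barcodes (61.9 to 72.4%), and 199 of 199 were above the deep C1q barcodes and 0 above the C1q-free ones. Col2a1 and Col1a1 were lowest, at 36.0 and 42.2%, and Nox4 and Efhd1 highest, at 89.0 and 86.5%. For both kinds of gene the members were intermediate, as the plot of the members between the other sets shows. The genes were chosen for a gap between deep barcodes with and without C1q, though in another library. Their place between the sets was thus partly fixed by the choice and is given as a description.

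**Figure D5:**
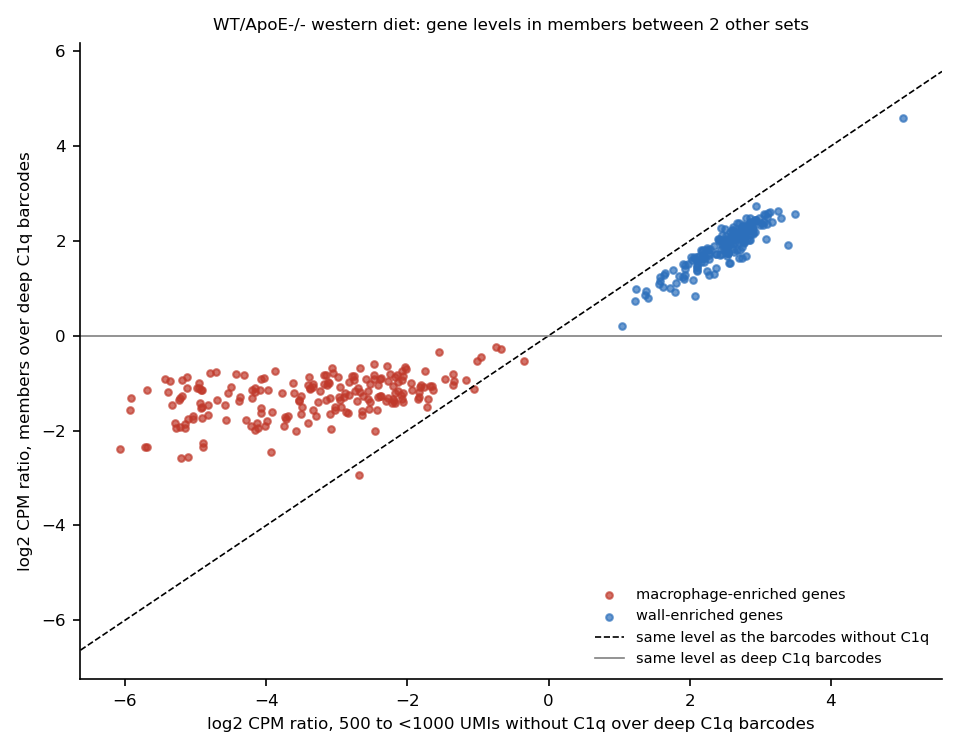
Each point is a gene chosen in the LysM-DKO/ApoE-/- western diet library and read in WT/ApoE-/- western diet, by the log2 CPM ratio of low C1q-free over deep C1q barcodes (horizontal) and of members over deep C1q barcodes (vertical). Macrophage-enriched genes lie below 0 and mostly above the dashed line of equal level, wall-enriched genes lie above 0 and below that line, and Cd163, with no UMI in the members, is not drawn.

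AU-rich elements, sequences in the 3′ untranslated region of many inflammatory mRNAs, were looked at as a description. The motif TTATTTATT was searched on the sense strand of the longest annotated 3′ untranslated region of each gene (GENCODE M21, GRCm38, overlapping matches counted). It is present in 7.65% of 21039 genes and in 6 of the 16 inflammatory genes tested. The first match is shown, 29 bases in coding direction with the motif and its overlapping copies in capitals, for the 4 inflammatory genes among those named above that hold it:
Tnf, chr17:35199689-35199717, minus strand: tttgcacttaTTATTTATTATTTATTTAT
Cxcl2, chr5:90905316-90905344, plus strand: gagagttcacTTATTTATTtatctatgta
Cxcl1, chr5:90892615-90892643, plus strand: atttatgtatTTATTTATTccacaaagtg
Nfkbia, chr12:55489608-55489636, minus strand: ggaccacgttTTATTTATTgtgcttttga
Cxcl2, Cxcl1 and Tnf, with 4, 2 and 5 copies, had log2 ratios of -4.12, -3.60 and -3.50, and Nfkbia, with 1, had -1.68. Ccl4, Ccl3, Cxcl10 and Ccl7, at -4.50 to -3.62, have no match. Among the macrophage-enriched genes, the 20 with the motif stood at a median of 38.9% of the deep level (33.3 to 48.7%) and the 178 without it at 43.5% (34.8 to 51.2%). Their 3′ untranslated regions differed in median length, at 1912.5 and 856.5 bases. Among genes with at least 1000 bases, the 16 with the motif stood at 38.9% and the 78 without it at 42.2%. The 16 motif genes outside the inflammatory list stood at 41.7%. Whether the motif bears on these levels was not tested.

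The number of genes seen at equal depth differed little between the sets in 3 of the 4 libraries. Thinned to 500 UMIs, members had a median of 349, 343, 340 and 313 genes, deep C1q barcodes 346, 349, 352 and 353, and low C1q-free barcodes 353, 353, 337 and 337. The lowest median, 313, was that of the 8 members of LysM-DKO/ApoE-/- western diet, whose interquartile range of 307.75 to 320.5 lay below those of the deep (343 to 365) and the low C1q-free barcodes (322 to 350.0) of that library. Mitochondrial genes, which the rule limits, took 5.57, 7.62, 4.77 and 5.16% of the members' UMIs and 3.88, 4.37, 3.78 and 4.15% in deep C1q barcodes, given as a description.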

How the data were processed

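The deposited matrices hold raw UMI counts per gene and barcode, made by the authors with Cell Ranger 6.0.1 (normal diet) and 6.1.2 (western diet), per the file headers. Per the submitters' processing notes, Cell Ranger 6.1.2 and Seurat 4.1.0 were used with mm10. The files hold 13831, 15826, 29724 and 11414 barcodes with 51281643, 50662515, 67450979 and 62510744 UMIs. Cell-calling settings are not given in the sources used here.

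Members and gene lists were chosen with earlier results of these data known. Doublets were not removed. UMIs were summed per library and set, and members were compared with deep C1q barcodes in edgeR 4.0.16 (TMM scaling, filterByExpr, library block, R 4.3.3), leaving out the genes of the rule. Both sets of a pair come from the same library. Nothing says how many animals a library holds, so the p-values can speak only for these 4 libraries, whose spread may be technical. SE and p-values come from the fit and need not show the full spread between the libraries. For Ccl4 and Cxcl2 the log2 ratios by library ran from -8.88 to -1.55 and from -9.48 to -1.94. The SE of these genes were 0.41 and 0.36, so their p-values may be too small. On simulated data with 4715 genes, 94% of genes 4-fold higher and 88% of those 4-fold lower were recovered, but 0 and 26% at 2-fold, and 6 of 4515 unchanged genes were called. The simulation used a dispersion (spread beyond counting error) well below the 0.1221 of the real fit and changed only well-counted genes. These rates may therefore not hold for the real data. TMM factors ran from 0.7812 to 1.649.

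Named genes were the 12 largest called changes in each direction, with a CPM difference of the same sign in all 4 libraries (a count of 0 included) and with a mean of at least 100 CPM in the higher set, and up to 4 of the most abundant genes of each list. In the lists 1 gene was not analysed here, and some genes that the rule names are not reported here. Gene IDs matched GENCODE M21 for 99.6% of 32285 features. Alternatives were other scalings, DESeq2 1.42.0, no filter, no block, each library left out, other reference sets and other limits of the rule.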

Additional observations from a re-analysis of the deposited data

How the results depend on the processing

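The number of called genes depended on the processing, while of the 292 called genes, where still tested, only Cd163 changed sign under an alternative run, to 0.12 with barcodes of 1000 to under 2000 UMIs. Against 292 called genes (127 higher, 165 lower), median-ratio scaling gave 604 (288 and 316), no filter on low counts 726 (384 and 342), and no scaling beyond total UMIs, an alternative chosen after seeing the data, 546 (303 higher). DESeq2 gave 194 higher. With no replicate block, that is without the library term, 541 were called (235 and 306); the labels number no replicates that pair groups, and the block joins 2 sets of the same library. Barcodes of 1000 to under 2000 UMIs gave 135 (68 and 67), at least 5 C1q UMIs 184 (86 lower), and at most 5% mitochondrial UMIs 39 (17 and 22), where LysM-DKO normal diet kept 0.0126% of its barcodes as members. Leaving out 1 library gave 80 to 531 called genes, 36 to 241 higher and 29 to 290 lower, the fewest without LysM-DKO normal diet.

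At 5 C1q UMIs the members' share of barcodes was 0.0506, 0.0758 and 1.01% in the first 3 libraries, the other macrophage share 1.05% in WT normal diet and 1.08% in WT/ApoE-/- western diet, and the smooth muscle share 2.14 and 0.717% in the western diet libraries. At 5% mitochondrial UMIs the share of barcodes was 0.0434, 0.0126 and 1.48%, other macrophage genes took 0.355% in LysM-DKO normal diet and smooth muscle genes 2.54% in WT/ApoE-/- western diet.

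The other sign changes were of uncalled genes and of list medians, and the cause was not tested. Tmsb4x went to 0.02 by DESeq2 and by median-ratio scaling, 0.35 without scaling and 0.09 without WT/ApoE-/- western diet, against -0.44 without WT normal diet. Ccl8 went to -1.14 at 5% mitochondrial UMIs, -0.18 with thinned deep barcodes, -0.16 without the filter, and -0.37 and -0.27 without LysM-DKO normal diet and LysM-DKO/ApoE-/- western diet, against 1.29 without WT/ApoE-/- western diet. Egr1 went to -0.77 at 5% mitochondrial UMIs, -0.02 with deep barcodes under 10000 UMIs, -0.41 without the filter, -0.13 without LysM-DKO normal diet and -0.1 without WT normal diet, against 0.33 without LysM-DKO/ApoE-/- western diet. Fos, Gas5 and Fabp4 went to -0.46, -0.14 and -0.14 at 5% mitochondrial UMIs and to -0.20, -0.21 and -0.38 without the filter, and Fabp4 to -0.08 and -0.15 without the one or the other LysM-DKO library, against 0.34 without WT/ApoE-/- western diet. Gsn went to -0.14 at 5% mitochondrial UMIs, Fabp5 to 0.90 with deep barcodes under 10000 UMIs, Pecam1 to -0.38 without the filter and -0.83 without the block, and Igkc to -0.13 without the block. The median of respiratory chain genes went to -0.16 at 5% mitochondrial UMIs, -0.24 without the filter and -0.11 without WT normal diet, against 0.45 without WT/ApoE-/- western diet. That of endothelial genes went to -0.14, -0.83 and -0.15 without the filter, the block and LysM-DKO/ApoE-/- western diet. Ribosomal protein genes went to 0.25 without scaling and 0.00 without WT/ApoE-/- western diet, against -0.53 without WT normal diet, and resident macrophage genes from -1.24 to 0.15 with barcodes of 1000 to under 2000 UMIs.

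The members of 3 libraries held 6051 to 18348 UMIs, and changes of 2-fold were rarely recovered on simulated data, which had a smaller dispersion than the real fit.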
